A study of Mus musculus with 9 samples.

Results

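The genes that drive cell division and DNA replication were followed in adipose stromal cells (ASCs) of the mouse mammary gland at 3 stages of its postnatal development. A list of 42 such genes was matched by symbol to probe sets annotated to exactly 1 gene. Of these, 41 were measured, among 19930 genes in all, and Ccnb1, the mitotic cyclin B1, was left out because no such probe set carried its symbol. The mean log2 signal over the probe sets of a gene was its value on an array. Of the 41 genes, 38 had 1 probe set and 3 (Top2a, Pcna and Tk1) had several.

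Female Balb/c mice gave the cells of every stage, with 3 Affymetrix Mouse Gene 1.0 ST arrays per stage. ASC-Ns came from nulliparous mice of 8 weeks that had not been housed with males, ASC-Ls from mice at day 5 of lactation and ASC-Is from mice at day 3 of involution, and the methods state that bred females were mated at 8 weeks of age. The sources differ on what the RNA came from. The labels name Trizol extraction of stroma separated by digestion and centrifugation, whereas the methods describe kit extraction from low passage cultures. Whether the signals are those of cells from the gland or of cells grown in a dish is therefore not settled. The cells came from several mice, but the mice behind each array are not given, and p-values therefore measure the spread between preparations. Markers of fibroblasts and preadipocytes averaged between 9.71 and 10.82 on the log2 scale over the 9 arrays, and markers of mature adipocytes between 5.51 and 5.65, where array medians of all probe sets lay between 5.93 and 6.0. Single adipocyte markers differed, with Fabp4 between 7.50 and 8.45, above those medians, and Adipoq between 3.815 and 4.407, below them. In bulk RNA, fewer cells of a type and less RNA per cell cannot be told apart.

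A dividing cell first commits to DNA synthesis, when cyclin E and the E2F factors switch on the genes for replication, and then prepares mitosis, when cyclins A and B with the kinase Cdk1 drive the assembly of the spindle. Genes of both steps are kept off in resting cells by the DREAM complex, which acts through promoter elements named E2F sites and cell cycle homology regions (CHR), the latter often lying near CCAAT boxes. In the mammary gland, division is known to be frequent in the epithelium of pregnancy, while stromal cells divide little in tissue and readily in culture.

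The promoters of 4 genes are shown because they carry these elements in different mixtures. The sequences are RefSeq's for GRCm38.p6, reach from 250 bases before to 50 bases after an annotated start, and read 5′ to 3′ along the gene. Capitals mark the letters TTTGAA of the CHR, the letters CCAAT of the CCAAT box, and 4 spellings of E2F sites, on either strand. The E2F letters were TTCCCGC as well as TTGGCGC, with TTCGCGC or else TTGCCGC. Plk1 encodes a kinase of mitotic entry, Mki67 the Ki-67 protein that coats mitotic chromosomes, Cdk1 the central mitotic kinase, and Rrm2 a subunit of ribonucleotide reductase that supplies deoxynucleotides.
Plk1, chr7:122159185-122159484, plus strand: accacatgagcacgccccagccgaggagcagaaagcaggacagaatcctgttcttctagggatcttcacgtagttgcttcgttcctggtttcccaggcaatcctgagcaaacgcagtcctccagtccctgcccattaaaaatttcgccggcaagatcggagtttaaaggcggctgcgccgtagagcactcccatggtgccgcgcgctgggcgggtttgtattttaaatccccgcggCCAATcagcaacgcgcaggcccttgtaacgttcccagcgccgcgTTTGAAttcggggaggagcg
Mki67, chr7:135716330-135716629, minus strand: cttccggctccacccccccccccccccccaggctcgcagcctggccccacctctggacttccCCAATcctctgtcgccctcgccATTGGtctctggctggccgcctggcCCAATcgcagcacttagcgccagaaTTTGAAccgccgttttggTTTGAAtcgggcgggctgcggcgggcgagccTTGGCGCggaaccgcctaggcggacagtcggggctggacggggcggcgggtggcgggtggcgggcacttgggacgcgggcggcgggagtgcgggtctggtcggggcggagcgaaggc
Cdk1, chr10:69352863-69353162, minus strand: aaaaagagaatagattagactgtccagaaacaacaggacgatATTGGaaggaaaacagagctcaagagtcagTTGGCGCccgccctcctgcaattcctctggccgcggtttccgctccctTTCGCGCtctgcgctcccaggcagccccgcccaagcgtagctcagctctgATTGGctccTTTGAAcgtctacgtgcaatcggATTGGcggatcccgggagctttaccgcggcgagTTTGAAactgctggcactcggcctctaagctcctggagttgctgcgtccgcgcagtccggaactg
Rrm2, chr12:24708004-24708303, plus strand: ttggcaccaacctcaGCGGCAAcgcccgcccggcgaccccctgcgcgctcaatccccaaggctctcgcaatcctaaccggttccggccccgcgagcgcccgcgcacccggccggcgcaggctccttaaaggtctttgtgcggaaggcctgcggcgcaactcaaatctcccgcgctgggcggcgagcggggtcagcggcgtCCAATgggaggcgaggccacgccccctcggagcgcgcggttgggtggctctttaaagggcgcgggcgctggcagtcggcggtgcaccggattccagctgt

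Of the 41 measured genes, 33 had at least 1 such promoter window in the RefSeq table, 36 windows in all. Those without a window were Ccna2, Aurkb, Kif20a, Tpx2, Mcm4, Gins1, Foxm1 and Ccne2. CHR letters occurred in 17 of the 36 windows (47.2%) and in 17.9% of all 32851 windows. CCAAT letters occurred in 28 windows (77.8%, against 37.4%) and E2F letters in 12 (33.3%, against 9.57%). Among the 20 windows of the 2 mitotic roles, 15 held CHR letters and 2 (Mki67 and Cdk1) held E2F letters, whereas among the 11 windows of replication genes 2 held CHR letters and 7 held E2F letters. A CCAAT match overlapped an E2F match in 1 window. These are matches of letters, not binding sites. In 7 windows of 6 genes (Aurka, Cdc6, E2f1, Ezh2, Mcm7 and Uhrf1) the annotated start lay more than 200 bases inside the gene.

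The signals of these genes varied widely between preparations of the same stage and moved together while doing so. The array ASC-N 2 was the highest of all 9 arrays for 34 of the 41 genes, and the array ASC-N 3 was the lowest for 31. Over all genes measured, 10.7% were highest in ASC-N 2 and 10.4% were lowest in ASC-N 3. The difference between these nulliparous preparations had a median of 2.06 on the log2 scale over the 41 genes and of -0.05 over all genes. It was at least 1 for 39 of the 41 genes (95.1%) and for 3.07% of all genes. This pair of arrays was taken after the values of the 41 genes were seen. A large step between them in these genes was therefore partly built in. With no pair chosen, the range of a gene over the 9 arrays had a median of 2.07 over the 41 genes and 0.58 over all genes. The SD within a stage had a median of 0.84 over the 41 genes against 0.20 over all genes.

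**Figure D1:**
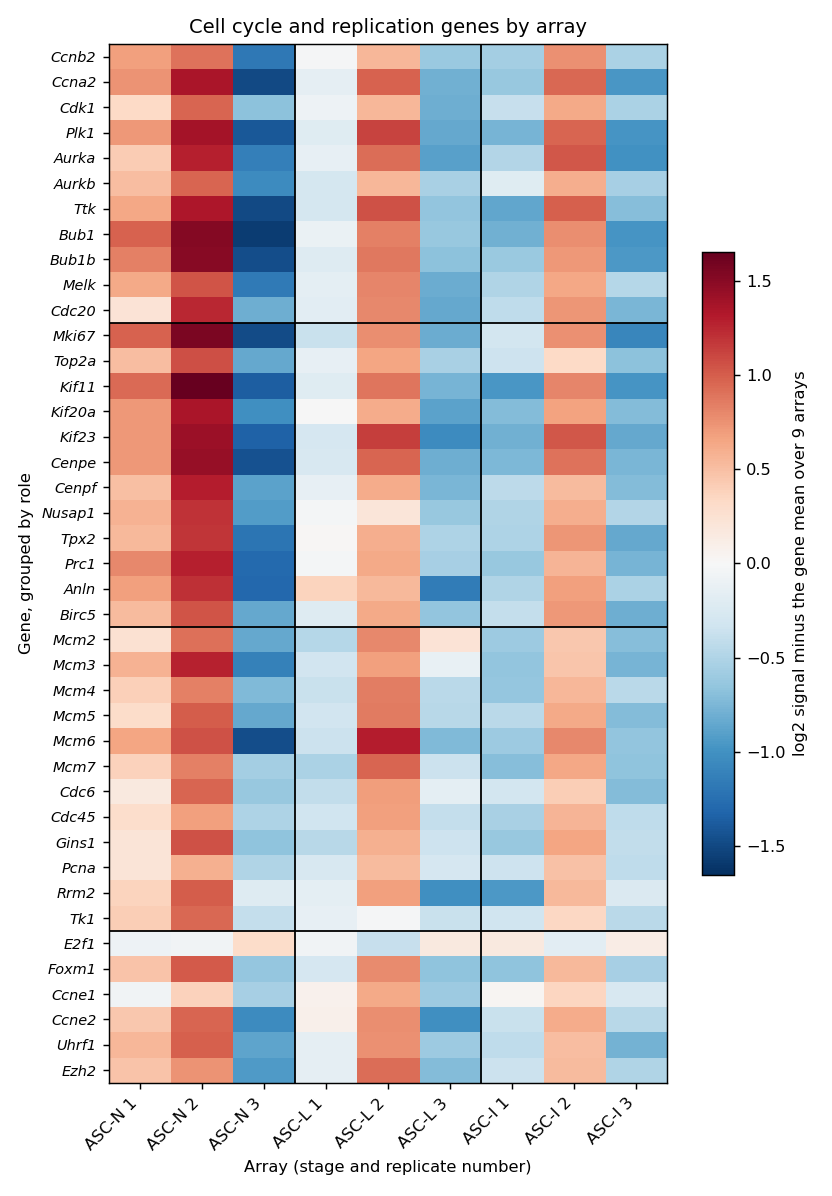
The colour map shows the log2 signal of each of 41 genes (rows, grouped by role) on each of 9 arrays (columns), minus the gene's mean over the arrays. ASC-N 2, ASC-L 2 and ASC-I 2 are red for nearly every gene, ASC-N 3 is blue, and E2f1 runs the other way.

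Mki67, the usual marker of cycling cells, read 8.72, 9.29 and 6.26 in the 3 ASC-N arrays, 7.36, 8.51 and 6.91 in ASC-Ls, and 7.43, 8.49 and 6.65 in ASC-Is. The nulliparous arrays thus held both the highest and the lowest value, and ASC-N 2 stood 8.17-fold above ASC-N 3. Cdk1, the kinase that starts mitosis, read 8.63, 9.27 and 7.64 in ASC-Ns, 8.22, 8.86 and 7.51 in ASC-Ls, and 7.93, 8.93 and 7.78 in ASC-Is. Its lowest array was ASC-L 3, just under ASC-N 3. Ccna2, the cyclin A of S phase and G2, read 9.60, 10.21 and 7.37 in ASC-Ns, 8.71, 9.84 and 8.07 in ASC-Ls, and 8.24, 9.82 and 7.90 in ASC-Is. Plk1, whose promoter with CHR and CCAAT letters is printed above, read 9.56, 10.22 and 7.44 in ASC-Ns, 8.65, 9.97 and 7.99 in ASC-Ls, and 8.08, 9.81 and 7.87 in ASC-Is. In Ccna2 and Plk1 alike, the second preparation of every stage was the highest of its stage and the stages overlapped.

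The largest difference between the nulliparous preparations was that of Bub1, a kinase of the spindle checkpoint, which read 8.82, 9.36 and 6.28 in ASC-Ns, an 8.46-fold step from ASC-N 3 to ASC-N 2. Its ASC-L arrays read 7.74, 8.67 and 7.21 and its ASC-I arrays 7.05, 8.62 and 6.87. All 6 of these values lay between the lowest and the highest ASC-N array. Aurkb, the kinase of the chromosomal passenger complex, read 8.27, 8.73 and 6.73 in ASC-Ns, 7.47, 8.32 and 7.22 in ASC-Ls, and 7.57, 8.36 and 7.22 in ASC-Is. Birc5, or survivin, another part of that complex, read 7.29, 7.81 and 5.92 in ASC-Ns, 6.56, 7.39 and 6.11 in ASC-Ls, and 6.38, 7.48 and 5.97 in ASC-Is. Both partners followed the same order of arrays in ASC-Ns as Bub1. Kif11, a motor that pushes spindle poles apart, read 8.05, 8.77 and 5.76 in ASC-Ns, 6.91, 8.00 and 6.34 in ASC-Ls, and 6.15, 7.92 and 6.13 in ASC-Is.

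Top2a, the topoisomerase that untangles replicated chromosomes, had 2 probe sets of very different signal. The brighter read 9.56, 10.24 and 7.39 in ASC-Ns, 8.70, 9.56 and 8.26 in ASC-Ls, and 8.37, 9.47 and 8.03 in ASC-Is. The dimmer ranged from 2.74 to 4.02. The mean of both, used as the value of Top2a elsewhere, read 6.57, 7.13 and 5.21 in ASC-Ns, a narrower spread than in the brighter. Both probe sets were highest in ASC-N 2, but the brighter was lowest in ASC-N 3 and the dimmer in ASC-I 3.

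Among 12 genes of replication the median step from ASC-N 3 to ASC-N 2 was 1.57 on the log2 scale, against 2.42 and 2.44 in the mitotic roles. The mitotic range, however, began at 1.64 (Cdk1). The steps of Mcm6 (2.52), Mcm3 (2.39), Mcm5 (1.84), Mcm2 (1.75) and Gins1 (1.72) lay within it. The order of arrays differed in part among these 12 genes, since Mcm4, Mcm6, Mcm7 and Cdc45, named after their values were seen, were highest in ASC-L 2. Against ASC-N 2, Cdc45 was all but level (7.9338 against 7.9336) and Mcm4 nearly so (9.089 against 9.071). Mcm6 (9.43 against 9.19) and Mcm7 (9.22 against 9.09) lay farther apart. Mcm2, a subunit of the replicative helicase, read 8.42, 9.08 and 7.33 in ASC-Ns, 7.69, 8.96 and 8.39 in ASC-Ls, and 7.56, 8.61 and 7.46 in ASC-Is. In ASC-Ls the third preparation of Mcm2 lay above the first, unlike in the mitotic genes. Pcna, the sliding clamp of DNA polymerases, read 10.27, 10.64 and 9.56 in ASC-Ns, 9.79, 10.57 and 9.77 in ASC-Ls, and 9.71, 10.54 and 9.64 in ASC-Is. Its step from ASC-N 3 to ASC-N 2 was 2.12-fold, the smallest among the 23 mitotic and 12 replication genes measured. Rrm2 read 9.81, 10.44 and 9.23 in ASC-Ns, 9.29, 10.12 and 8.43 in ASC-Ls, and 8.50, 9.98 and 9.21 in ASC-Is. Tk1, the thymidine kinase of S phase, read 7.64, 8.19 and 6.85 in ASC-Ns, 7.11, 7.22 and 6.87 in ASC-Ls, and 6.92, 7.58 and 6.79 in ASC-Is.

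The genes of G1/S transcription and chromatin were mixed. Foxm1, the factor that turns on mitotic genes, read 7.26, 7.80 and 6.15 in ASC-Ns, 6.52, 7.57 and 6.12 in ASC-Ls, and 6.12, 7.32 and 6.24 in ASC-Is. Ezh2, the methyltransferase of Polycomb, read 9.04, 9.31 and 7.63 in ASC-Ns, 8.42, 9.49 and 7.85 in ASC-Ls, and 8.21, 9.09 and 8.06 in ASC-Is, with its highest array in ASC-L 2. Ccne1, or cyclin E1, read 8.61, 9.05 and 8.12 in ASC-Ns, 8.74, 9.28 and 8.06 in ASC-Ls, and 8.69, 9.02 and 8.40 in ASC-Is, a narrower range than any mitotic gene. E2f1 was the exception, at 7.58, 7.61 and 7.98 in ASC-Ns, 7.62, 7.28 and 7.83 in ASC-Ls, and 7.83, 7.49 and 7.80 in ASC-Is. Its highest array was ASC-N 3 and its lowest ASC-L 2, and its whole range over 9 arrays was 0.70.

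**Figure D2:**
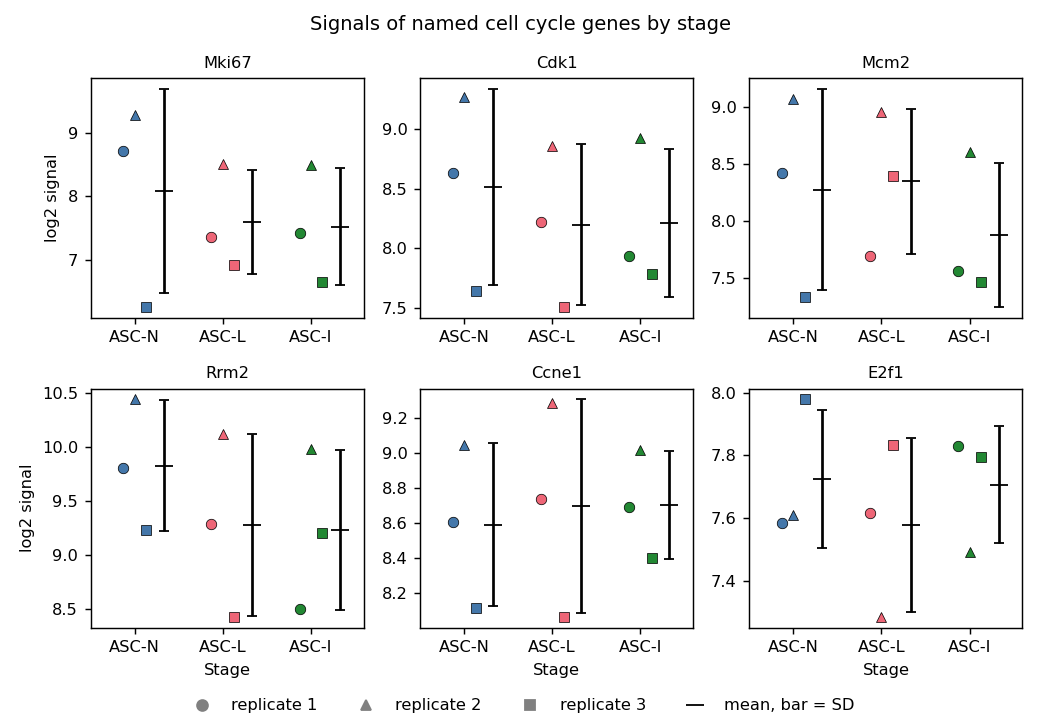
Points are the log2 signals of 6 genes on each array by stage, with replicate numbers as symbols, and bars are the mean and SD of 3 arrays (each panel has its own axis). The triangles of replicate 2 are the highest of their stage in every panel but that of E2f1, where they are the lowest in ASC-L and ASC-I.

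Averaged over its genes, each role was highest in ASC-N 2 and lowest in ASC-N 3. The order of the other arrays differed in part between roles. The mean deviation of the 41 genes from their 9-array means was 0.51, 1.08 and -0.97 in ASC-Ns, -0.19, 0.72 and -0.61 in ASC-Ls, and -0.52, 0.63 and -0.65 in ASC-Is. Replicate 2 was therefore high at each stage. For 40 of the 41 genes it was the highest array within each of the 3 stages, which held for 12.6% of all genes, and E2f1 was the gene that differed. From the lowest to the highest array, the mean deviation of mitotic cyclins, kinases and checkpoint genes spanned 2.45, that of spindle, chromosome and cytokinesis genes 2.47, that of replication genes 1.63 and that of G1/S genes 1.29. The 3 ASC-N arrays reached both above and below every ASC-L and ASC-I array for 28 of the 41 genes, against 8.28% of all genes.

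**Figure D3:**
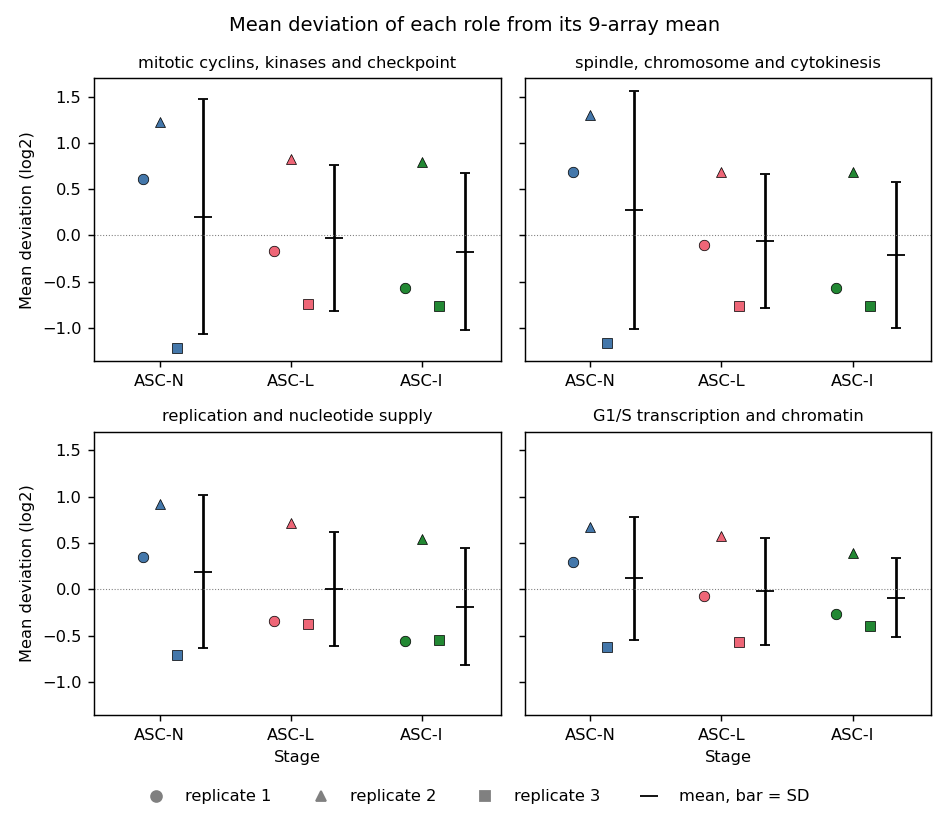
Each panel shows, for a role, the mean deviation of its genes (log2) from their 9-array means on each array, with the mean and SD of 3 arrays per stage. The mitotic roles span 2.45 and 2.47 and the G1/S genes 1.29, with replicate 2 on top at every stage.

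The stages were then compared with each other, the question being whether lactation or involution altered division in these cells. A gene was called at an unadjusted p under 0.05 by limma and at least a 1.5-fold change. The comparisons share arrays and are given side by side. In ASC-Ls against ASC-Ns, 0 of the 41 genes were called, where 0.627% of all genes were, and 0 had an unadjusted p under 0.05. Their median log2 change was -0.23, against 0.01 over all genes, with 39 genes lower and 2 higher. In ASC-Is against ASC-Ns, again 0 were called, where 0.251% of all genes were, and 0 had an unadjusted p under 0.05, with a median of -0.40 (0.00 over all genes) and 40 genes lower. In ASC-Ls against ASC-Is, 0 were called, where 0.482% of all genes were, and 0 had an unadjusted p under 0.05, with a median of 0.15 (0.01 over all genes), 35 genes higher and 6 lower. Blocking on replicate number, 0 of the 41 genes were again called in ASC-Ls against ASC-Is, while calls over all genes went from 96 to 207 (1.04%). No gene of the 41 had stages that did not overlap, against 8.59% of all genes for ASC-Ls and ASC-Ns, 6.54% for ASC-Is and ASC-Ns and 5.56% for ASC-Ls and ASC-Is. The smallest Benjamini-Hochberg adjusted p over all genes from limma was 0.998 in ASC-Ls against ASC-Ns, and 0 of 19930 genes passed 0.05 after adjustment in any comparison.

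These comparisons leave wide room. The standard error of the log2 change had a median of 0.57 over the 41 genes and 0.16 over all genes. For Mki67 the means were 8.09 ± 1.61 in ASC-Ns, 7.59 ± 0.82 in ASC-Ls and 7.52 ± 0.93 in ASC-Is (SD, n = 3 each). The change was -0.49 in ASC-Ls against ASC-Ns, with a 95% interval from -2.29 to 1.30, and -0.56 (-2.36 to 1.23) in ASC-Is against ASC-Ns. Neither a fall of several fold nor a rise of 2-fold lies outside these intervals, which come from the fit without the block on replicate number. With that block, the unadjusted p of Mki67 (limma) went from 0.549 to 0.185 in ASC-Ls against ASC-Ns. In ASC-Is against ASC-Ns it went from 0.495 to 0.136. E2f1 had the narrowest interval, -0.15 (-0.55 to 0.26) in ASC-Ls against ASC-Ns.

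None of the largest differences passed the test. In ASC-Ls against ASC-Ns, Rrm2 differed by -0.55 ± 0.50 (SE), Tk1 by -0.50 ± 0.33, Mki67 by -0.49 ± 0.79 and Kif20a, a motor of cytokinesis, by -0.44 ± 0.64. Tk1 had the smallest p of the 41 genes there (unadjusted p = 0.164, limma). The higher genes were Ccne1 at 0.11 ± 0.33 and Mcm2 at 0.07 ± 0.50. In ASC-Is against ASC-Ns, Kif11 differed by -0.79 ± 0.80, Bub1 by -0.64 ± 0.80, Kif20a by -0.61 ± 0.64 and Rrm2 by -0.60 ± 0.50, and Ccne1 was the gene above 0, at 0.11 ± 0.33. In ASC-Ls against ASC-Is, the helicase subunits Mcm2 and Mcm3 differed by 0.47 ± 0.50 and 0.40 ± 0.59, Bub1 by 0.36 ± 0.80 and Kif11 by 0.35 ± 0.80. The lowest there were E2f1 at -0.13 ± 0.18, Aurkb at -0.05 ± 0.52, Tk1 at -0.03 ± 0.33 and Nusap1, a microtubule-bundling protein, at -0.03 ± 0.52.

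**Figure D4:**
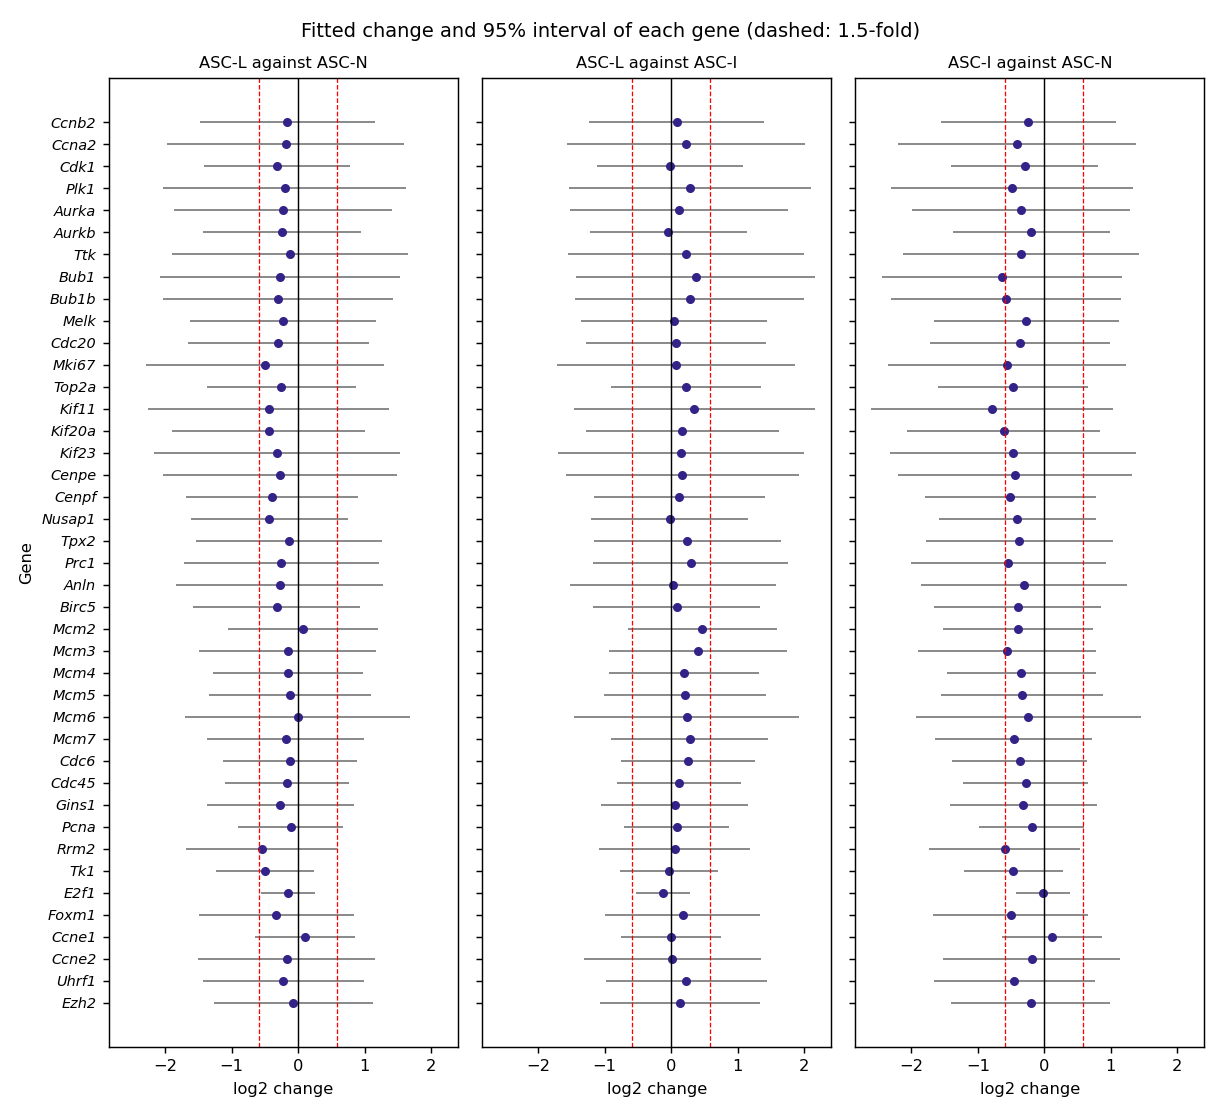
Points are fitted log2 changes of 41 genes in 3 comparisons, lines are their 95% intervals from limma, and dashed lines mark 1.5-fold. Every interval includes 0, and points of both comparisons with ASC-Ns lie mostly left of it.

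The direction differed between replicate numbers. The labels do not match arrays between stages. At number 1, deviations from stage means over all genes correlated with those of ASC-Ns at -0.08 for ASC-Ls and 0.07 for ASC-Is. Between arrays of the same number, ASC-L 1 was below ASC-N 1 for 39 of the 41 genes (median -0.70) and ASC-L 2 below ASC-N 2 for 35 (median -0.37), but ASC-L 3 was above ASC-N 3 for 35 (median 0.30). In the same way, ASC-I 1 was below ASC-N 1 for 39 genes (median -1.04) and ASC-I 2 below ASC-N 2 for 41 (median -0.41), whereas ASC-I 3 was above ASC-N 3 for 36 (median 0.29). Cdk1, Cdc20, Rrm2 and Foxm1 were lower in ASC-Ls for all 3 numbers, 4 of 41 genes against 12.0% of all genes, and Mcm7, Cdc6, Rrm2 and Tk1 were lower in ASC-Is for all 3, 4 of 41 against 10.8%. ASC-Ls were above ASC-Is for all 3 numbers in 16 of the 41 genes, against 13.5% of all genes, with medians of 0.30, 0.08 and 0.04. Without ASC-N 3, the median change was -0.83 in ASC-Ls and -0.97 in ASC-Is against ASC-Ns, and 3 genes (Mki67, Nusap1 and Tk1) and 10 genes were called lower, respectively, where 352 and 221 of all 19930 genes were called in either direction. Mki67 then differed by -1.41 (unadjusted p = 0.0452, limma) in ASC-Ls and by -1.48 (unadjusted p = 0.0377, limma) in ASC-Is. Without ASC-N 2, the medians were 0.22 and 0.05 and the change of Mki67 was 0.11 and 0.04, above 0 in both.

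Other genes of the cycle were read from lists of related function. Of 43 further mitosis genes, 0 were called in any comparison, and the median step from ASC-N 3 to ASC-N 2 was 2.01, close to that of the 41 genes. Of 34 further replication genes, 0 were called and the median step was 1.05. In lists that govern entry into the cycle the steps went both ways, from -0.54 to 1.08 (median 0.02) over 10 G1 cyclins and kinases, from -0.83 to 1.29 (median 0.22) over 9 CDK inhibitors and pocket proteins and from -1.48 to 0.40 (median -0.12) over 12 growth arrest and p53 target genes. Their median SDs within a stage were 0.23, 0.31 and 0.27, between the 0.20 of all genes and the 0.84 of the 41 genes. Of 14 E2F and DREAM factors, 3 (E2f7, E2f8 and Lin9, chosen after their values were seen) had a step of at least 1. E2f8, a repressor of the E2F family, read 6.96, 7.63 and 5.46 in ASC-Ns, in the order of the mitotic genes.

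Cdkn2a, whose products p16 and p19Arf hold back the cycle, was the gene of these lists that was called. It read 6.81, 7.01 and 7.84 in ASC-Ns, 7.0, 6.58 and 7.02 in ASC-Ls, and 7.95, 6.95 and 8.23 in ASC-Is. The change was -0.85 ± 0.36 (SE) in ASC-Ls against ASC-Is (unadjusted p = 0.0434, limma; adjusted p = 1.00), with ASC-I 2 inside the range of ASC-Ls, and the unadjusted p was 0.00756 with the replicate number as a block. It was below 1.5-fold or missed the p limit in the other comparisons. Leaving out a single array ended the call for 6 of the 9 arrays, with changes from -0.92 to -0.59 among those 6 and p up to 0.156.

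Markers of other cell types moved with some of these arrays. Over 12 luminal epithelial markers the mean deviation was 0.35, 0.25 and -1.01 in ASC-Ns, -0.73, 2.42 and -0.60 in ASC-Ls, and -0.79, 1.12 and -1.02 in ASC-Is. Over 8 basal epithelial markers it was 2.37 in ASC-L 2, 1.06 in ASC-I 2 and between -0.88 and 0.01 on the other arrays. ASC-L 2 and ASC-I 2 were thus high both for epithelial markers and for the 41 genes. ASC-N 2, the highest array for the 41 genes, was at 0.25 and -0.08 for these lists. It stood above ASC-N 3, at -1.01 and -0.88, as it did for the 41 genes. Over 10 endothelial markers the mean deviation was 1.22 in ASC-L 2 and 0.70 in ASC-I 2, but -0.48 in ASC-N 2 and 0.97 in ASC-N 1. Mean log2 signals of the luminal list ranged from 5.83 to 7.19 in ASC-Ns, 6.11 to 9.27 in ASC-Ls and 5.82 to 7.96 in ASC-Is, and those of the basal list from 5.18 to 6.07, 5.44 to 8.43 and 5.30 to 7.11. The part of epithelial cells in the cell cycle signals was not tested. Without ASC-L 2 and ASC-I 2, the median change of the 41 genes was -0.61 in ASC-Ls and -0.81 in ASC-Is against ASC-Ns, and 1 gene (Rrm2) and 2 genes (Mcm7 and Rrm2) were called lower, where 154 and 144 of all 19930 genes were called in either direction.

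Macrophage markers followed another order. Over 17 markers the mean deviation was 0.87, 0.80 and -1.21 in ASC-Ns, -0.58, -0.73 and -0.93 in ASC-Ls, and 1.54, -0.12 and 0.37 in ASC-Is, and the mean log2 signal ranged from 6.06 to 8.14, 6.34 to 6.69 and 7.15 to 8.81. ASC-N 3 was the lowest of all arrays for these markers and for the 41 genes. ASC-L 2 was high for the 41 genes and low for these markers, and ASC-I 1 the reverse. In ASC-Ls against ASC-Is, 9 of the 17 were called lower, where 0.482% of all genes were called in either direction. When replicate number was a block, 15 were called lower, where 1.04% of all genes were called. The largest changes were in Cybb, an NADPH oxidase subunit (-1.81 ± 0.70, SE), and Lyz2, a lysozyme (-1.74 ± 0.53). The part of macrophages in the cell cycle signals was not tested. The mean deviation over 10 fibroblast and preadipocyte markers varied less, from -0.65 in ASC-L 2 to 0.46 in ASC-I 3. Single markers of that list differed in spread. Lum ranged from 4.62 in ASC-I 1 to 9.06 in ASC-L 3 and Dpt from 4.53 in ASC-L 2 to 8.82 in ASC-I 3. Col1a1 ranged only from 12.63 in ASC-N 3 to 13.36 in ASC-I 1. Over 9 milk genes the mean deviation was 1.23 in ASC-L 2, 0.48 in ASC-I 2 and between -0.33 and 0.01 elsewhere. It ranged from -0.18 to 0.16 over 7 lymphocyte markers and from -0.46 to 0.70 over 7 pericyte and smooth muscle markers. In ASC-Ls against ASC-Ns, 5 markers were called, where 0.627% of all genes were. Csf1r, the macrophage growth factor receptor, and Pdgfra, a receptor of fibroblasts, were lower (-1.07 ± 0.45 and -1.22 ± 0.51, SE). Wap, Elf3 and Slc2a4 were higher (0.81 ± 0.34, 0.61 ± 0.14 and 0.65 ± 0.12). Elf3 read between 4.79 and 5.73 over the 9 arrays, below the array medians of all probe sets. Slc2a4 read between 5.59 and 6.42, around those medians. Wap read 5.78, 6.90 and 5.57 in ASC-Ls. In ASC-Is against ASC-Ns, 0 markers were called.

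**Figure D5:**
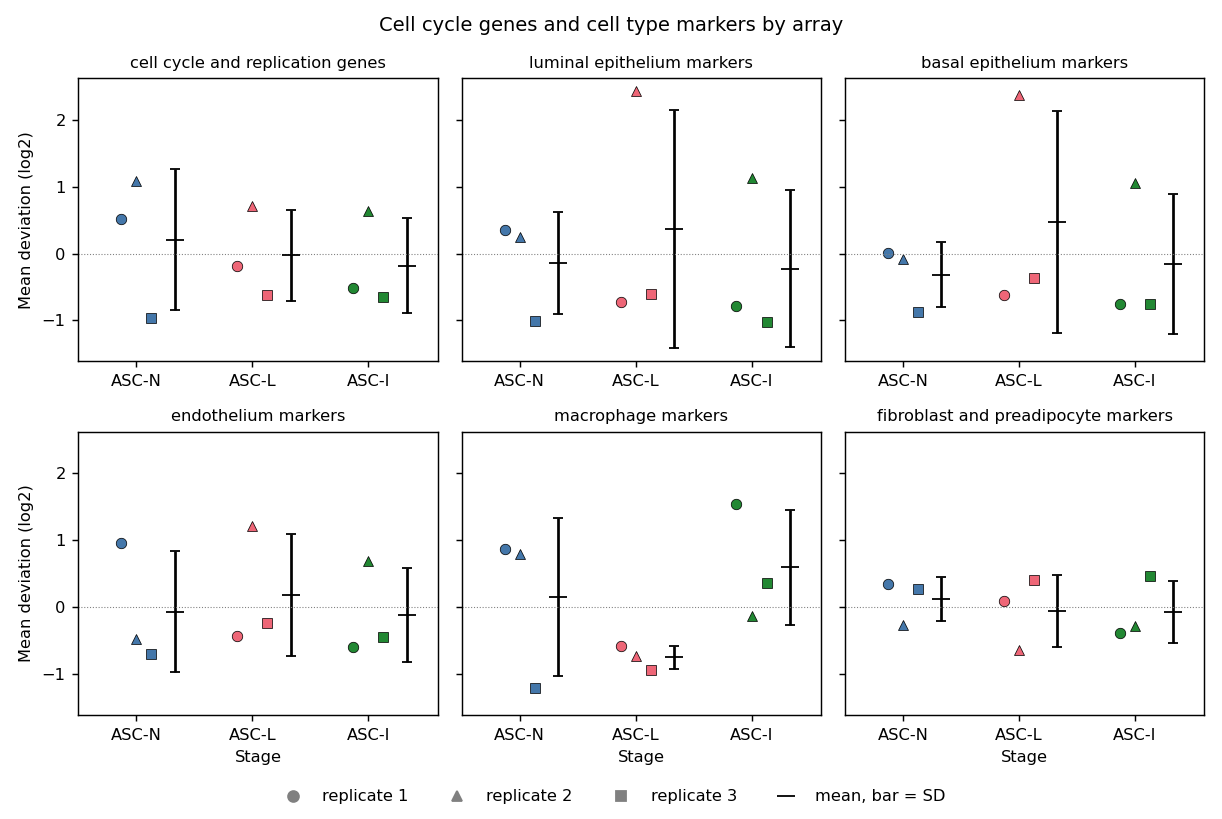
Panels show the mean deviation (log2) from the 9-array means of the 41 genes and of 5 marker lists on each array, with the mean and SD of 3 arrays per stage on a common axis. ASC-L 2 and ASC-I 2 stand highest for epithelial markers, at 2.42 and 1.12 for the luminal list, while ASC-N 2 stands highest for the cell cycle genes at 1.08.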

How the data were processed

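The deposited log2 signals are the authors' own normalized values. The methods name robust multi-array average, whereas GCRMA and limma (versions not given) are listed by the submitters, and which of these made the values is not settled, and no further normalization was applied. Of 28348 probe sets, the 21762 annotated to exactly 1 symbol were averaged per gene, giving 19930 genes. Stage means of all 9 arrays were fitted by linear models in limma 3.58.1 (R 4.3.3) and moderated by empirical Bayes with 2.91 prior degrees of freedom, and p-values were adjusted by the Benjamini-Hochberg method over all genes. The number of arrays limits the precision. Code was tested on simulated data.

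The genes, their roles, the pathway lists and the marker lists (also adipocyte, milk, lymphocyte and pericyte markers) were chosen with earlier results of these data known. Named genes were those called, the 4 largest rises and falls per comparison, and a set of well-known cycle genes; at most 2 called markers per list and comparison were named. Lists are described by counts and medians with no test. For arrays with equal replicate numbers, the correlation of deviations from stage means over all genes was 0.47, 0.73 and 0.46 between ASC-Ls and ASC-Is, so that these pairs met the limit for pairing (above 0.1 in every pair), while it was -0.08, 0.40 and 0.45 for ASC-Ls with ASC-Ns, and 0.07, 0.43 and 0.50 for ASC-Is with ASC-Ns. The block on replicate numbers, array weights, cyclic loess, quantile normalization, a robust prior with an intensity trend, fits to the compared stages alone, removal of the 25% dimmest genes, the brightest probe set per gene and leaving out arrays were tried as alternatives. Values and intervals come from the fit without the block, and blocked values are given where named.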

Additional observations from a re-analysis of the deposited data

How the results depend on the processing

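With the replicate number as a block, 0 of the 41 genes were called in each comparison, and Cdkn2a was again called in ASC-Ls against ASC-Is; the smallest unadjusted p from limma was 0.0307 in ASC-Ls against ASC-Ns, 0.140 in ASC-Ls against ASC-Is and 0.0380 in ASC-Is against ASC-Ns. This block called 85 genes higher and 210 lower of all genes in ASC-Ls against ASC-Ns, with 7 macrophage markers lower (1 without it), and 27 higher and 63 lower in ASC-Is against ASC-Ns. In ASC-Ls against ASC-Ns, array weights called 1 gene (Tk1), omitting replicate 2 of ASC-Ls together with replicate 2 of ASC-Is called 1 (Rrm2), and leaving out 1 array called from 0 to 3, the latter without ASC-N 3. Over all 19930 genes these settings called 311, 154 and from 80 to 404. In ASC-Is against ASC-Ns these counts were 4 (Kif11, Mcm3, Prc1 and Tk1), 2 (Mcm7 and Rrm2) and from 0 to 10, the latter again without ASC-N 3, and 187, 144 and from 32 to 221 over all genes. In ASC-Ls against ASC-Is the count was 0 under every alternative. With 1 array left out, the median change of the 41 genes ranged from -0.83 to 0.22 in ASC-Ls against ASC-Ns (above 0 without ASC-N 2 and without ASC-L 3), from -0.97 to 0.05 in ASC-Is against ASC-Ns (above 0 without ASC-N 2) and from -0.23 to 0.55 in ASC-Ls against ASC-Is (below 0 without ASC-L 2, ASC-I 1 or ASC-I 3). Under array weights these medians were -0.70, -0.81 and 0.08. With 1 array left out, the change of Mki67 ranged from -1.41 to 0.11 in ASC-Ls and from -1.48 to 0.037 in ASC-Is against ASC-Ns, above 0 without ASC-N 2, and from -0.39 to 0.56 in ASC-Ls against ASC-Is, below 0 without ASC-L 2 (-0.39), without ASC-I 3 (-0.37) and under array weights (-0.0016). The causes were not tested. Leaving out an array leaves 2 in its stage, and no detection call was used to tell dim signals from background.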
